A study of Mus musculus with 9 samples.

Results

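The genes described here make the machinery that reads messenger RNA into protein. They are the numbered translation initiation factors (Eif), the elongation factors (Eef), the release factors Etf1 and Gspt1, and the aminoacyl-tRNA synthetases, with the kinases, binding proteins and methyltransferases that carry the same symbols. Members were chosen by gene symbol in the annotation of the array. The rule found 81 of 10554 named genes, of which 45 belong to initiation, 8 to elongation, 2 to termination and 26 to the synthetases. A clone with a value on all 9 arrays existed for 77 of them, and these 77 were tested among 8644 genes.

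The skin came from the distal tail of female SKH-1 hairless mice, 3 weeks old at entry, in which a skin incision with cautery of the lymphatic trunks produces acute lymphedema. Lymphedema skin had received both the incision and the cautery, with methylene blue to show the lymphatics, and sham skin had received incision and dye without cautery. Normal skin had no surgery. All tissue was taken on day 14. Each state was represented by 3 arrays, each made from a pool of 3 mice, and every array set 1 tail skin pool against a common reference made from whole mouse embryos of late gestation.

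Initiation begins when eIF2 brings the initiator tRNA to the small ribosomal subunit, which eIF3 and the cap-binding eIF4 factors place on the mRNA. Several kinases can phosphorylate eIF2 under stress, which blocks its exchange factor eIF2B and lowers protein synthesis, while eIF4E-binding proteins hold back the cap-binding step when mTORC1 is inactive. The eEF1 complex then delivers the tRNAs that synthetases have charged, and cytosol and mitochondria mostly use separate synthetases. Much of this control acts through phosphorylation of the proteins, which an array of mRNA does not read.

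Values below are log2 ratios of tail skin over embryo, with each array centered on its median. The sample labels and the methods assign the dyes in opposite ways. The direction was therefore taken from 27 genes typical of embryos, of which 25 to 27 lay below the median of each array after the sign was turned, and from 17 genes typical of adult skin, of which 13 to 16 lay above it. The log base of the deposited values is not given and was read as 2, and another base would rescale every difference by the same factor. No label or header used here names slides or print runs, and slide sets were inferred from missing values: 186 features were read by all normal arrays and by the first lymphedema array, and by none of the remaining arrays. These 4 arrays are called the first set and the other 5 the second. With the set as a block, lymphedema against normal skin rests on lymphedema array 1 alone, and that estimate is called the blocked value. Normal and sham arrays share no set, and the block links them only through the lymphedema arrays.

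The cell makeup of the skin also differed between arrays. Of 14 leukocyte markers 8 were called higher in lymphedema than in normal skin, against 2.83% of all genes. Their median difference was 1.56, beside 0.10 for all genes. By array, the median over leukocyte markers of the difference from each gene's normal mean was 1.43 to 1.83 in lymphedema, 0.09 and 0.54 on sham arrays 2 and 1, and 1.63 on sham array 3. Sham array 3 also had the highest such median for skeletal muscle, at 2.23, and sham arrays 1 and 2 were at 0.43 and 0.77. All 9 muscle markers were higher in sham than in normal skin, against 59.6% of all genes, with a median difference of 0.97. The lymphedema arrays ran from −0.02 to 0.75 for muscle, and no muscle or keratinocyte marker was called. In bulk skin fewer cells of a type and less RNA per cell cannot be told apart, and the part of cell makeup in the results below was not tested.

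None of the 77 genes passed the test between lymphedema and normal skin (limma, Benjamini-Hochberg over all genes at 0.05), against 3.44% of all genes. At an unadjusted p under 0.05 there were 10 members, all higher in lymphedema, which is 13% of the members against 20.5% of all genes. The lowest adjusted p was 0.0583, for Qars. SAM, the test named in the study, was written anew and run on the genes tested here. It called 9 members higher and 0 lower, or 11.7% of the members, and 18.5% of all genes. The study filtered its features by another rule and imputed missing values, so these counts are not its own. The differences were small, and 73 of 77 lay within 0.5 of 0 on the log2 scale. The 95% interval stayed within a 2-fold change in either direction for 72 genes, or 93.5%, against 75.9% of all genes. The 5 genes whose interval reached beyond it were Eif2ak2, Qars, Eif3h, Eef1a1 and Eif3k. These intervals are for means of clones and leave out disagreement between clones. Those of Eef2k and Eif3f stayed within a 2-fold change, although single clones were at 1.01 and −1.21. The 77 members had 188 clones and the 8644 genes had 15723, and the part of clone number in these shares was not tested.

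The median difference over the 77 genes was 0.18, beside 0.10 for all genes tested. Higher values in lymphedema were found for 58 members, which is 75.3%, against 62% of all genes. With the slide set as a block the estimates were positive for 48 members, or 62.3%, against 57.5% of all genes. The blocked medians were 0.12 over the members and 0.08 over all genes. They were 0.12, 0.30 and 0.01 over initiation, elongation and synthetase genes. The lymphedema arrays all lay above the normal arrays in 22 members (28.6%, background 23.6%). They all lay below them in 2 (2.6%, background 10.2%), which were Rars2 and, on the 1 clone tested, Vars2. By step of translation the medians without the block were 0.20 for 44 initiation genes, 0.38 for 8 elongation genes, 0.20 for 2 release factors and 0.10 for 23 synthetases. Quantile normalization moved the median of all genes to −0.02 and these medians to 0.12, 0.31 and 0.02 for initiation, elongation and synthetase genes. The median was 0.21 for 13 cytosolic synthetases, which ran from −0.16 to 0.76, and −0.22 for 10 mitochondrial ones, which ran from −0.36 to 0.37. The ranges overlapped, and the difference between the compartments was not tested. Compartment was read from the symbol, with a final 2 as mitochondrial, so Gars, which serves both, counted as cytosolic.

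**Figure D1:**
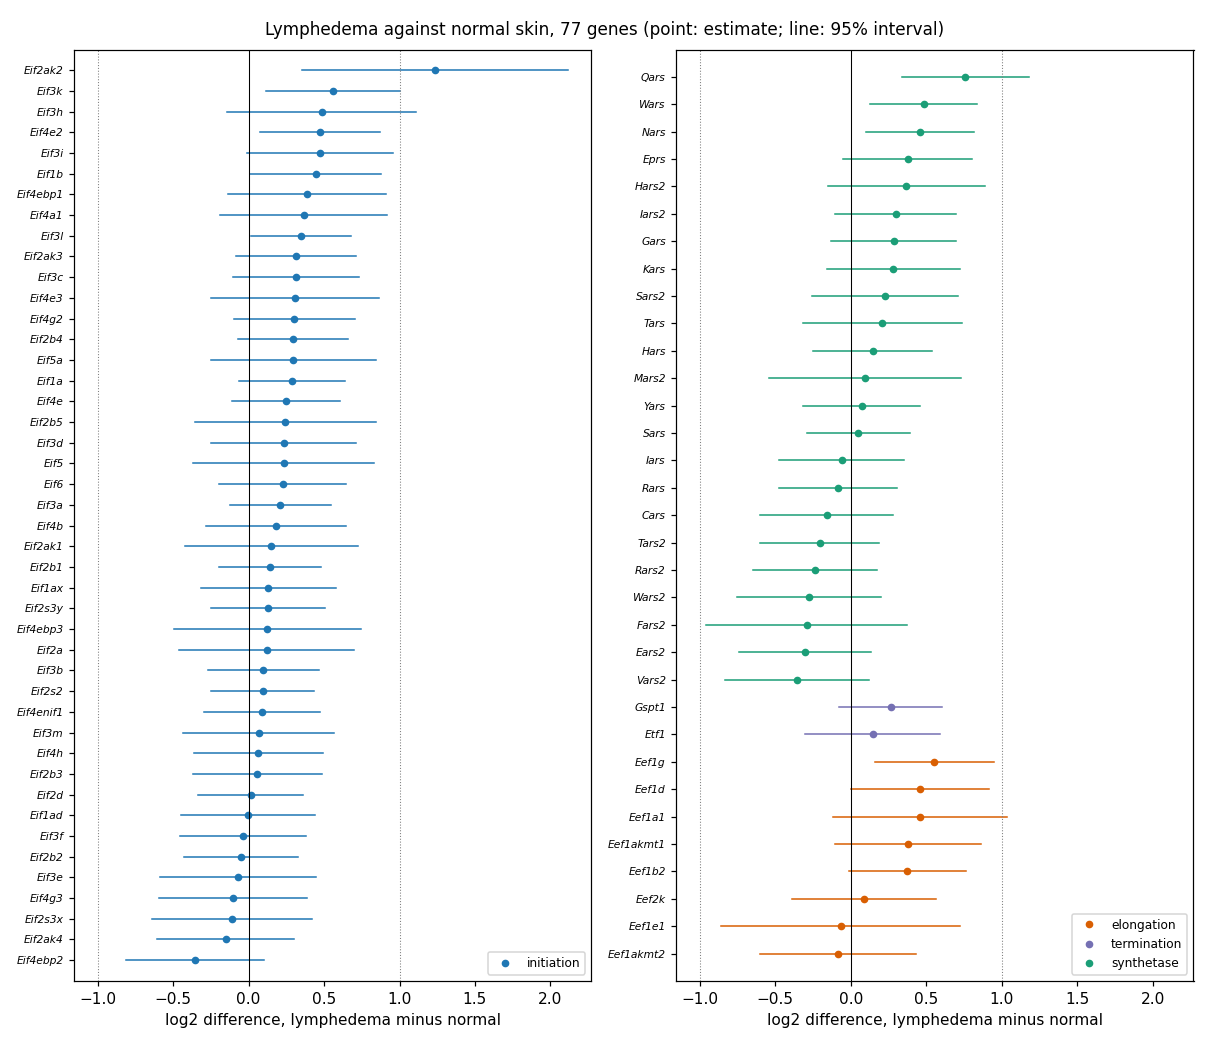
Difference between lymphedema and normal skin on the log2 scale for each of the 77 genes, with initiation genes on the left and the other genes on the right. Points are limma estimates, lines are 95% intervals, n = 3 arrays per state, and dotted lines mark a 2-fold change. All estimates but those of Eif2ak2 and Qars lie between −0.36 and 0.56, and the interval of Eif2ak2 is the widest.

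Eif2ak2 encodes PKR, the eIF2 kinase that is activated by double-stranded RNA and is itself an interferon-induced gene. It had the largest difference of all members, on 1 clone. Its values were 0.65, 0.16 and 0.46 on normal arrays 1 to 3, 0.90, 1.58 and 2.49 on the lymphedema arrays, and 1.38, 0.04 and 1.10 on the sham arrays. All lymphedema arrays lay above all normal arrays, while the sham arrays spanned the range from below the lowest normal to above the lowest lymphedema array. The difference was 1.23 (SE 0.40, adjusted p = 0.115, limma), or 2.35-fold, with a 95% interval of 0.35 to 2.11. The blocked value was 0.48, and lymphedema arrays 2 and 3 lay 1.19 above the sham mean. Of 9 interferon-responsive genes 4 were called higher in the same comparison (Irf7, Psmb9, Ifit1 and Ifitm3), against 2.83% of all genes. The list had a median of 0.87, beside 0.10 for all genes. Its median difference from the normal means was 0.85 to 0.94 on the lymphedema arrays and −0.07 to 0.40 on the sham arrays, and their part in the value of Eif2ak2 was not tested.

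The other kinases differed by less. Eif2ak3, or PERK, the kinase of endoplasmic reticulum stress, read −0.49, −0.43 and −0.32 in normal, −0.29, −0.06 and 0.05 in lymphedema and 0.18, −0.27 and −0.20 in sham skin. Both surgical states lay wholly above normal skin, by 0.31 and 0.32, with adjusted p = 0.356 and 0.707 (limma). Eif2ak1, the heme-regulated kinase, differed by 0.15 between lymphedema and normal skin, with an interval of −0.42 to 0.73. Eif2ak4, or GCN2, the kinase that senses uncharged tRNA, was at −0.15, with an interval of −0.61 to 0.30. The 3 measured genes of eIF2 subunits, which do not include the phosphorylated subunit Eif2s1, lay between −0.11 and 0.13, and the 5 eIF2B genes between −0.05 for Eif2b2 and 0.30 for Eif2b4. These are means of clones that disagreed, from −0.84 to 0.58 for Eif2s2, from −0.24 to 0.53 for Eif2b1 and from −0.05 to 0.64 for Eif2b4. Eif2s3y lies on the Y chromosome and the skin came from females, so the signal of its 3 clones cannot be read as its mRNA in skin. Its difference was 0.13 (95% interval −0.25 to 0.50), and its close copy Eif2s3x was at −0.11.

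Sequence around the annotated transcription start is shown for genes whose windows held the interferon-stimulated response element (GAAA, followed after any 2 bases by a second GAAA), because Eif2ak2 and Qars had the largest differences. The motif was chosen after the sequence of Eif2ak2 had been seen and was searched on both strands in RefSeq windows of 300 bases, from 250 before to 50 after the start (GRCm38.p6). Windows existed for 60 of the 81 genes. Capitals mark the motif or its reverse complement, and each stretch reads in the direction of transcription.

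Eif2ak2: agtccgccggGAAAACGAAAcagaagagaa

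Qars: tgctaaacacTTTCCCTTTCcacgcccatg

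Eif3a: agaccgcaaaTTTCCCTTTCccactctgtg

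Eif2s3x: tgccgagcatTTTCCTTTTCtctccgagca

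The Eif2ak2 stretch lies on the minus strand at chr17:78882535-78882564, inside the transcript. That of Qars lies on the plus strand at chr9:108507796-108507825, and those of Eif3a and Eif2s3x on the minus strand at chr19:60790885-60790914 and chrX:94212636-94212665. The motif was in 3 of 48 initiation windows, 1 of 19 synthetase windows and 3.44% of all 32851 windows. Of its 4 carriers, Eif3a differed by 0.21 and Eif2s3x by −0.11. The letters were thus shared by the largest differences and by genes close to the overall median, and a match says nothing about occupancy.

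**Figure D2:**
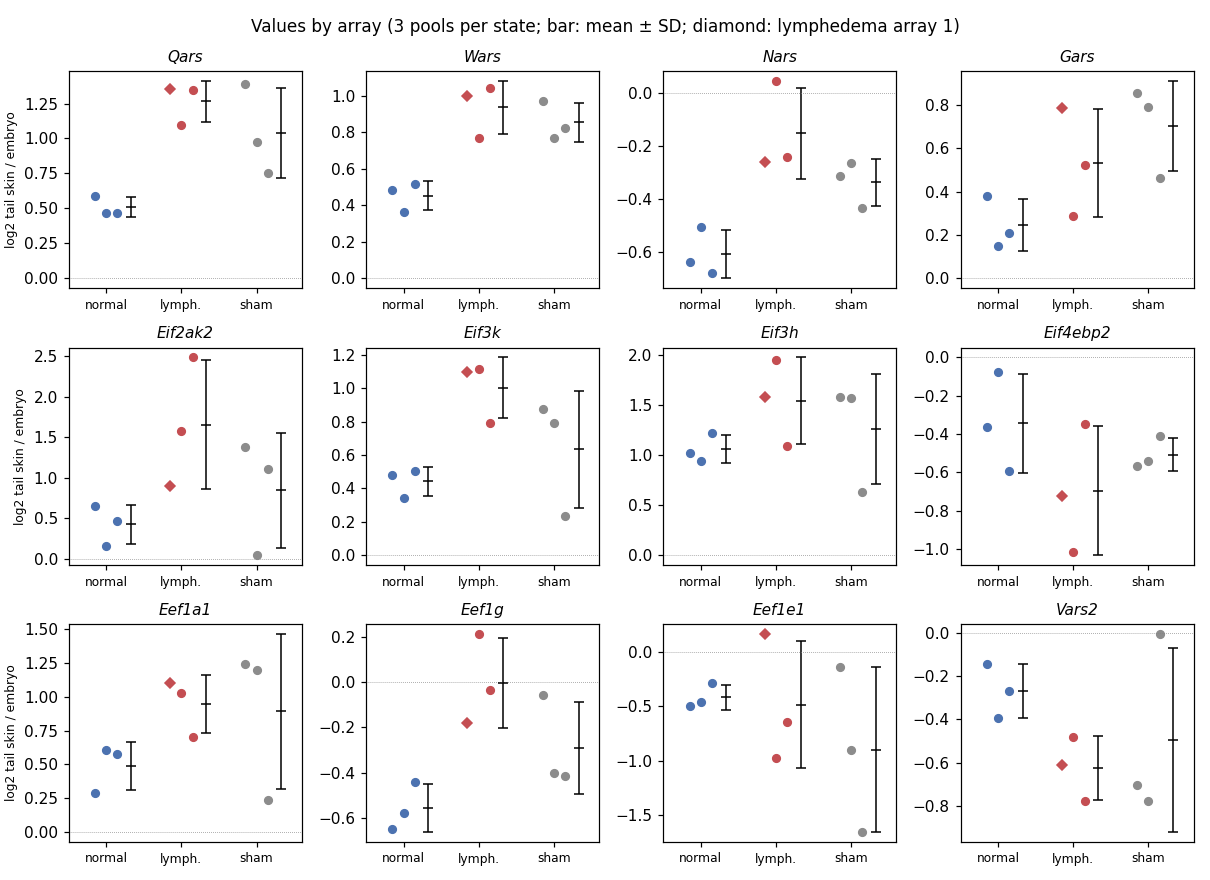
Log2 ratio of tail skin over embryo for 12 members on each of the 9 arrays, with mean ± SD of the 3 arrays of a state. Each panel has its own vertical scale, and the diamond is lymphedema array 1, which shares the slide set of the normal arrays. Qars, Wars, Nars, Eif2ak2, Eif3k, Eef1a1 and Eef1g show all lymphedema arrays above the normal arrays, Vars2 shows them below, and Gars, Eif3h, Eif4ebp2 and Eef1e1 overlap.

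The eIF3 complex is the scaffold that joins the small subunit to the mRNA. Its 11 measured subunits had a median of 0.23 in lymphedema against normal skin, with 9 of 11 above 0 and 0 called. Eif3k, one of its small subunits, read 0.48, 0.34 and 0.50 in normal, 1.10, 1.12 and 0.79 in lymphedema and 0.88, 0.79 and 0.23 in sham skin. Normal arrays lay below every lymphedema array, whereas the sham arrays reached from below normal into the lymphedema range. The difference was 0.56 (SE 0.20, adjusted p = 0.147, limma), the blocked value was 0.66, and its 2 clones gave 0.52 and 0.60. With all sham arrays left out Eif3k passed (adjusted p = 0.0492). Eif3h, a subunit of the octameric core, was at 0.48 on 1 clone, Eif3i, a WD-repeat subunit, at 0.47 and Eif3l at 0.35. Normal and lymphedema arrays overlapped for Eif3h and Eif3i and not for Eif3l.

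Eif3e was the lowest of the complex, at −0.07 (95% interval −0.58 to 0.45). Eif3f came next at −0.04 as the mean of 4 clones that disagreed: one was at −1.21 and was the single member clone of 188 that passed on its own (limma, adjusted p = 0.0371), while the others were at 0.09, 0.37 and 0.60. That clone read 1.20, 1.22 and 1.23 in normal, 0.65, −0.32 and −0.32 in lymphedema and 0.01, −0.19 and 0.56 in sham skin. Its surgical arrays all lay below the normal arrays, unlike any other Eif3f clone. Eif3f was named after its values were seen. Across all clones on the array 2.94% passed in this comparison.

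The eIF4 factors had a median of 0.28 over 8 genes, with 7 above 0. Eif4e, the cap-binding protein, read −0.20, −0.32 and −0.39 in normal, −0.18, 0.06 and −0.04 in lymphedema and 0.02, −0.08 and −0.27 in sham skin. Lymphedema and normal arrays were separate by a narrow margin, and the difference was 0.25 (95% interval −0.11 to 0.60). Eif4e2, the cap-binding homolog that represses translation, was at 0.47 (SE 0.18, adjusted p = 0.171, limma) with all lymphedema and all sham arrays above normal. Eif4a1, the RNA helicase of the cap complex, was at 0.37 with overlapping arrays. Eif4g3, a large scaffold of the complex, was at −0.10 (95% interval −0.59 to 0.38).

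Among the proteins that bind eIF4E the signs differed. Eif4ebp1 read −0.55, −0.46 and −0.76 in normal, −0.72, −0.04 and 0.16 in lymphedema and −0.46, −0.56 and −0.08 in sham skin. Lymphedema array 1 lay with the normal arrays, so the difference of 0.39 came with a blocked value of −0.13. Eif4ebp2, a repressor of the same kind, had the lowest estimate of all initiation genes, at −0.35 (95% interval −0.81 to 0.10). It read −0.36, −0.07 and −0.59 in normal, −0.72, −1.02 and −0.35 in lymphedema and −0.57, −0.54 and −0.41 in sham skin, and the states overlapped. Eif4ebp3 was at 0.12, and Eif4enif1, which carries eIF4E into the nucleus, was at 0.09.

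Of the remaining 9 initiation factors 8 were above 0. Eif1b, a paralog of the start codon selection factor eIF1, was at 0.44 (SE 0.20, adjusted p = 0.235, limma), with 1 lymphedema array inside the normal range. Eif5a, the hypusine-carrying factor that relieves stalled ribosomes, was at 0.30 in lymphedema and 0.31 in sham skin against normal. Eif6, which keeps free large ribosomal subunits from joining small ones, was at 0.23 and 0.34. Its sham arrays, at 1.86, 1.54 and 1.69, all lay above the normal arrays at 1.50, 1.44 and 1.13, and the lymphedema arrays at 1.30, 1.82 and 1.63 did not.

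Elongation genes had the highest median of the steps. Eef1g, the gamma subunit of the exchange complex, was measured by 10 clones, and all 10 were higher in lymphedema than in normal skin, from 0.12 to 0.71. Their mean was −0.65, −0.58 and −0.44 in normal, −0.18, 0.21 and −0.04 in lymphedema and −0.06, −0.40 and −0.41 in sham skin. Both surgical states lay above normal skin on every array. The difference was 0.55 in lymphedema (SE 0.18, adjusted p = 0.114, limma, blocked value 0.37) and 0.26 in sham skin. Eef1a1, the GTPase that brings charged tRNA to the ribosome, was at 0.46 on normal arrays of 0.29, 0.60 and 0.57 and lymphedema arrays of 1.11, 1.03 and 0.70. Its sham arrays read 1.24, 1.20 and 0.23 and so enclosed both other states. Its clones gave 0.13 and 0.79, and whether they bound RNA of its close copies was not tested.

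Eef1b2 and Eef1d, the nucleotide exchange subunits beta and delta, were at 0.37 and 0.46 (adjusted p = 0.261 and 0.24, limma). Eef1b2 was separate from both other states, with −0.16, −0.26 and −0.30 in normal, −0.01, 0.45 and −0.04 in lymphedema and −0.13, −0.17 and −0.05 in sham skin. Eef1d overlapped with normal skin through lymphedema array 1. The 4 subunits of the working complex thus lay between 0.37 and 0.55. Eef1e1 carries the eEF1 name but serves as a scaffold of the multi-synthetase complex, and it was at −0.07 on 1 clone. It read −0.50, −0.46 and −0.29 in normal, 0.16, −0.98 and −0.64 in lymphedema and −0.14, −0.90 and −1.65 in sham skin, with the largest standard error of the members after Eif2ak2.

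Eef2k, the kinase that halts elongation by phosphorylating eEF2, differed by 0.09 (95% interval −0.39 to 0.56). That is the mean of 3 clones that disagreed, from −0.57 to 1.01. The methyltransferases Eef1akmt1 and Eef1akmt2, which modify lysines of eEF1A, were at 0.38 and −0.09. Etf1, the release factor that recognises stop codons, was at 0.14 (95% interval −0.30 to 0.59). Its partner GTPase Gspt1 was at 0.26 (95% interval −0.08 to 0.60), with the lymphedema arrays at −0.22, −0.18 and −0.19 above the normal arrays at −0.47, −0.36 and −0.55. The clones of Etf1 ran from −0.15 to 0.53 and those of Gspt1 from −0.14 to 0.51.

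Qars, the glutaminyl-tRNA synthetase, came nearest to the threshold. It read 0.59, 0.47 and 0.46 in normal, 1.36, 1.10 and 1.35 in lymphedema and 1.39, 0.98 and 0.75 in sham skin. Every surgical array lay above every normal array, and lymphedema and sham arrays overlapped. The difference from normal was 0.76 in lymphedema (SE 0.19, 95% interval 0.34 to 1.18, adjusted p = 0.0583, limma), or 1.69-fold, and 0.53 in sham skin (95% interval 0.11 to 0.95, adjusted p = 0.499). Its clones gave 0.85 and 0.67, and the blocked value was 0.85. Qars passed with arrays scaled to equal spread (adjusted p = 0.0245), without sham array 1 (0.0279) or sham array 3 (0.0255), and with all sham arrays left out (0.0166).

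Wars, the tryptophanyl-tRNA synthetase and a gene induced by interferon gamma, had the same arrangement. It read 0.48, 0.36 and 0.51 in normal, 1.00, 0.77 and 1.04 in lymphedema and 0.97, 0.77 and 0.82 in sham skin. All surgical arrays again lay above normal skin, by 0.48 and 0.40 in the mean (adjusted p = 0.122 and 0.549, limma). Its clones were unequal, at 0.14 and 0.83. Nars, the asparaginyl enzyme, read −0.64, −0.50 and −0.68 in normal, −0.26, 0.05 and −0.24 in lymphedema and −0.31, −0.26 and −0.43 in sham skin. Its lymphedema arrays all lay above both normal and sham arrays, by 0.46 and 0.19 in the mean, as did those of Eef1b2 and Eif3a (3.9% of members, against 4.79% of all genes), although lymphedema array 1 and sham array 2 of Nars were equal to the second decimal. Eprs, which charges glutamate and proline, was at 0.38 with arrays separate by a narrow margin (adjusted p = 0.304, limma). Its 3 clones were unequal, from 0.02 to 0.81. Gars, which charges glycine in both cytosol and mitochondria, was higher against normal in sham skin, at 0.46, than in lymphedema, at 0.29, and its 3 clones ran from −0.20 to 0.86.

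The 4 lowest synthetases were mitochondrial. Vars2, for valine, read −0.14, −0.39 and −0.27 in normal, −0.61, −0.48 and −0.78 in lymphedema and −0.70, −0.78 and −0.01 in sham skin. Lymphedema arrays were all below normal, and sham array 3 lay above both. The difference was −0.36 (SE 0.22, 95% interval −0.83 to 0.12). It rests on 1 of 3 clones, as the others lacked a value on sham array 3. Before centering, one of those read 0.868, 1.155 and 1.541 in normal and 1.81, 2 and 1.998 in lymphedema skin. The other read 1.597, 1.691 and 1.413 in normal and 1.027, 1.371 and 1.346 in lymphedema skin. With 2 of 3 values per group Vars2 was at 0.0652. Ears2, Fars2 and Wars2, for glutamate, phenylalanine and tryptophan, were at −0.30, −0.29 and −0.28, and their normal and lymphedema arrays overlapped. Single arrays moved these values by over 1.5 times: Ears2 was at −0.12 without lymphedema array 2, and Fars2 and Wars2 were at −0.08 and −0.10 without normal array 1. The clones of Wars2 gave −0.60 and 0.05. Hars2, Iars2, Sars2 and Mars2 were above 0, from 0.10 to 0.37, so that 4 of 10 mitochondrial enzymes had a positive estimate, against 10 of 13 cytosolic ones. The median over the mitochondrial enzymes of the difference from each gene's normal mean was −0.19, −0.16 and −0.13 on the lymphedema arrays, and over the cytosolic enzymes it was 0.11, 0.17 and 0.22. The medians of the mitochondrial values themselves lay the other way, at 0.04, 0.15 and 0.15 in lymphedema and 0.00, 0.02 and 0.05 in normal skin.

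The promoter windows of synthetases were searched for GATGCAA, the core of the C/EBP-ATF response element through which ATF4 is known to act on synthetase genes in amino acid shortage. The stretches are shown for the enzymes that carry it, with the motif or its reverse complement in capitals.

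Yars: gagctcagctGATGCAAcccgacgggacta

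Iars: actgtcagtaTTGCATCacctccagacgcg

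Tars: aggagtcccgTTGCATCagctggttagctg

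They lie at chr4:129189897-129189926 on the plus strand, chr13:49682127-49682156 on the plus strand and chr15:11399654-11399683 on the minus strand (GRCm38.p6). The motif was in 3 of 19 synthetase windows, or 15.8%, in 0 of 48 initiation windows and in 2.53% of all windows. The carriers charge tyrosine, isoleucine and threonine, and their differences were 0.07, −0.06 and 0.21. These lie in the middle of the synthetases, with intervals that all include 0. Of 20 known targets of the same response 0 were called higher, against 2.83% of all genes. The amino acid transporter Slc7a3 was the 1 called lower, at −1.12 (adjusted p = 0.0196, limma), against 0.602% of all genes. At an unadjusted p under 0.05 (limma) there were 8 targets, 5 higher and 3 lower, against 20.5% of all genes. The list had 10 genes above 0 and 10 below. Atf4 itself was at 0.79 (adjusted p = 0.109, limma) and Ddit3 at 0.83 (adjusted p = 0.16).

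Sham against normal skin shares the normal arrays with the comparison above. Here 0 of 77 members and 0 of 8644 genes, 0%, passed (limma). At an unadjusted p under 0.05 there were 3 members, Qars, Wars and Gars, which is 3.9% against 7.92% of all genes, and SAM called 0 members. The median difference was 0.15 over the members and 0.06 over all genes. Sham skin was higher for 64 members, or 83.1%, against 59.6% of all genes, and all sham arrays lay above all normal arrays for 16, or 20.8%, against 9.72%. None lay wholly below, against 3.09%. With the slide set as a block the estimates were positive for 40 members, or 51.9%, against 52% of all genes. The blocked median was 0.01 over the members and 0.02 over all genes. The sign found without the block was kept by 47 of 77 members, against 6244 of 8644 genes. Qars, Wars and Gars were then at 0.67, 0.49 and 0.84 (adjusted p = 0.999 for each, limma). Subgroup medians without the block were 0.19 for initiation, 0.12 for elongation, 0.23 for cytosolic and −0.10 for mitochondrial synthetases. With the block they were −0.07, 0.19, 0.11 and −0.09 in the same order. Without the block the highest estimates were those of Qars at 0.53, Gars at 0.46 and Eif4a1 at 0.43. The lowest were those of Fars2 at −0.48, Eef1e1 at −0.48 and Wars2 at −0.28, and the intervals of these 3 included 0.

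Lymphedema against sham skin gave 0 of 77 members called, against 0.0231% of all genes, and 0 members at an unadjusted p under 0.05, against 7.44% of all genes (limma). SAM also called 0. The median over members was 0.02, below the 0.06 of all genes, and 42 of 77 were higher in lymphedema, or 54.5%, against 58.9% of all genes. Lymphedema arrays lay wholly above sham arrays in 3 members, or 3.9%, against 6.63%, and wholly below in 0, against 3.69%. The interval lay within a 2-fold change for 75 members, all but Eif2ak2 and Eef1e1. Eif2ak2 was at 0.81 (95% interval −0.07 to 1.69) and Eif3k, the next highest initiation gene, at 0.37 (95% interval −0.07 to 0.81). Elongation genes had a median of 0.24, initiation genes of 0.02 and synthetases of −0.03. Within the second slide set, where lymphedema arrays 2 and 3 meet the sham arrays, these medians were 0.13, 0.10 and 0.02, and that over the members was 0.09, beside 0.07 for all genes. The 4 subunits of the eEF1 complex ran from 0.06 for Eef1a1 to 0.29 for Eef1g, and Eef1a1 was at −0.02 within the second set. Eef1e1 was at 0.41.

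**Figure D3:**
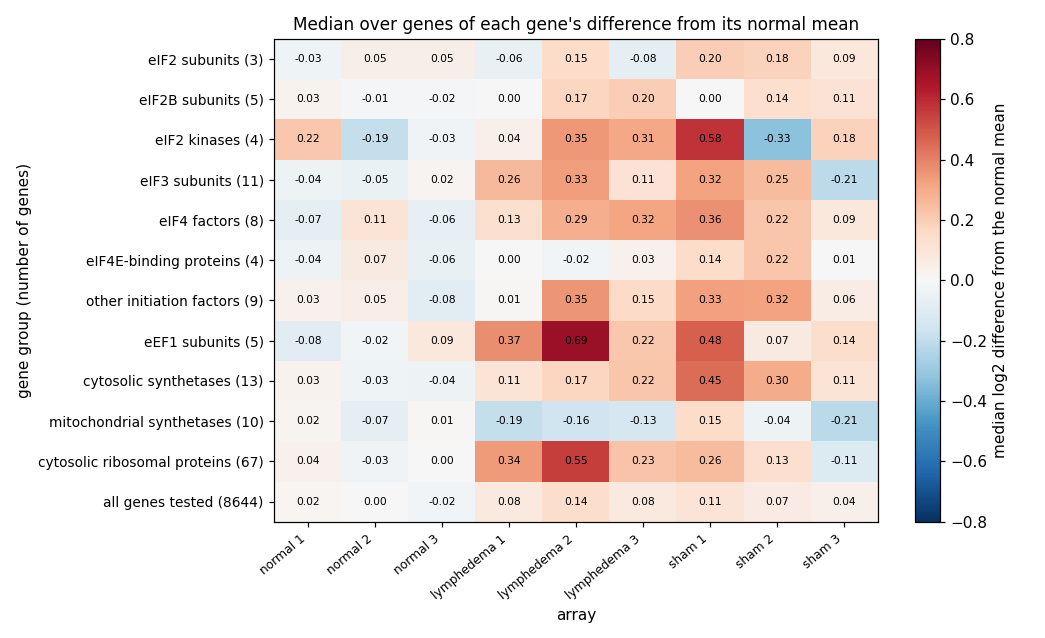
Median over the genes of each group of the difference between the value on an array and the gene's mean in normal skin, on the log2 scale, for 9 arrays and 12 groups, the last being all 8644 genes tested. Red is above and blue below normal. The eEF1 subunits and ribosomal proteins are highest on lymphedema array 2, and the eIF3 row is −0.21 on sham array 3 while it is 0.32 and 0.25 on the other sham arrays.

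Arrays of 1 state differed in how often they were the highest or lowest. Sham array 3 had the lowest sham value in 43 of 77 members, or 55.8%, against 39.4% of all genes, and in 9 of 11 eIF3 subunits. Sham array 1 had the highest in 46 members, or 59.7%, against 37.6%. Sham array 3 is the sham array with the highest leukocyte and muscle medians, and the link between these values was not tested. In lymphedema, array 1 was the lowest in 37 members, or 48.1%, against 38.4% of all genes, and array 2 the highest in 33, or 42.9%, against 39.9%. Measured against the normal mean, the medians over members were 0.12, 0.20 and 0.15 on lymphedema arrays 1 to 3. Those over all genes were 0.08, 0.14 and 0.08. Array 1 and the mean of arrays 2 and 3 had the same sign in 50 of 77 members. The share over all genes was not counted, so this number shows nothing particular to the members.

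As means of clones, the members differed little between adult tail skin and the whole embryo. The mean ratio over the 9 arrays lay beyond a 2-fold difference in 7 members, or 9.09%, against 19.9% of all genes. All arrays were above 0 in 25 members (32.5%, against 23.2%) and below 0 in 11 (14.3%, against 30.5%). The highest were Eif6 at 1.55, Eif3h at 1.29, Eif4ebp3 at 1.24 and Mars2 at 1.18, and the lowest were Eif4g3 at −1.04 and Yars at −0.77. Eif6 was above 1 on every array and Eif4g3 below −0.70 on every array. These ratios are relative to each array's median and compare tissues gene by gene, so they rank no gene's mRNA level above that of another. Clones of 1 gene could differ in ratio, as those of Ears2 did at 0.38 and 1.20 on normal array 1. The part of clone averaging in the shares above was not tested.

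**Figure D4:**
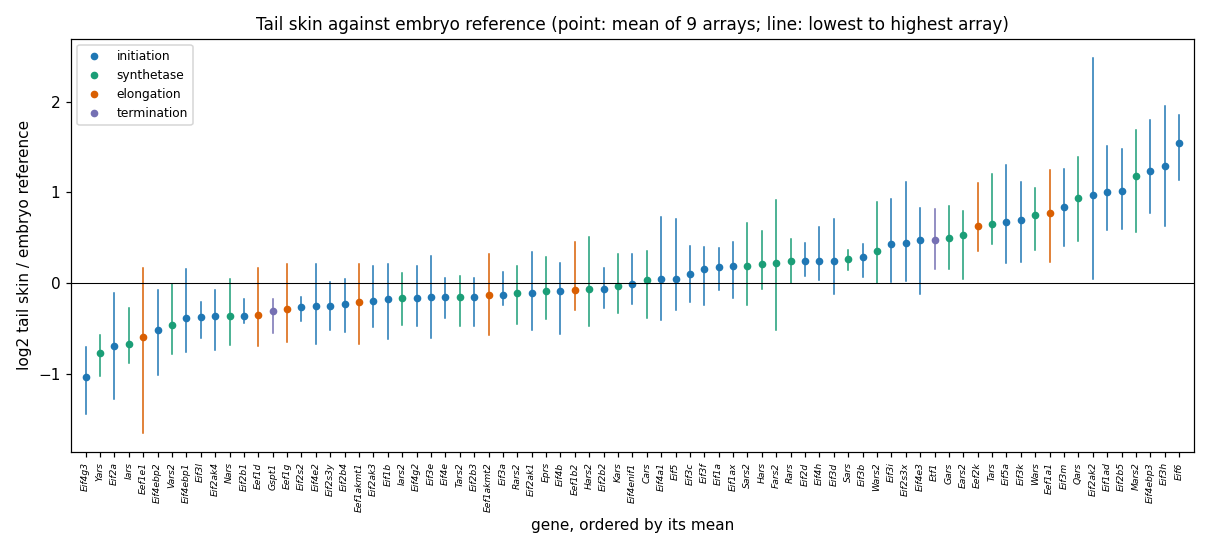
Log2 ratio of tail skin over whole embryo for the 77 genes in order of their mean over the 9 arrays. Points are means, lines run from the lowest to the highest array, and colors mark the step of translation. Means run from −1.04 for Eif4g3 to 1.55 for Eif6, and the longest line is that of Eif2ak2.

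More than one clone was available for 59 members, and in 35 of these all clones had the same sign between lymphedema and normal skin. Of 13 members with 4 or more clones, 5 had clones of 1 sign and 8 had clones of both. Eif3a, the largest eIF3 subunit, had 8 of 9 clones above 0, Eif4g2, which drives cap-independent initiation, 5 of 5, and Eif4a1, Eif4b and Eif5 4 of 4 each. The clones of Sars, for serine, were divided 3 to 2, within −0.14 and 0.26.

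Other genes of the pathway were compared from lists. The 67 cytosolic ribosomal proteins had a median of 0.38 in lymphedema against normal skin, with 66 above 0, against 62% of all genes. Of the 67, 3 were called higher, against 2.83% of all genes. They were Rps7 at 1.04, Rps12 at 0.83 and Rps4l at 0.65 (adjusted p = 0.0445, 0.0371 and 0.0478, limma). Ribosomal protein and eEF1 mRNAs are known to share a terminal oligopyrimidine start. Such a start (a C at the annotated start and at least 4 further pyrimidines) was in 0 of 7 elongation windows, 2 of 48 initiation windows (Eif3f and Eif2s3x), 1 of 19 synthetase windows (Wars2) and 2.51% of all windows, which says only whether the letters stand at the annotated base. Other initiation proteins, such as the poly(A)-binding protein Pabpc1 at 0.46, had a median of 0.30 over 15 genes, and 0 were called. Further synthetase and scaffold genes were at 0.17 over 6, mitochondrial translation factors at 0.17 over 7, diphthamide, rescue and recycling genes at −0.03 over 10 and mTORC1 signaling genes at −0.03 over 16, and 0 were called in each. The fibroblast list had a median of 0.66 over 7 genes, with Vim called higher, and 9 keratinocyte markers had a median of 0.09.

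Some genes of the rule could not be given. Eif4a3, Lars, Mars1 and Yars2 had no clone with a value on all arrays, and Eef2, Aars, Eif5b, Eif4a2, Eif3j1, Eif3j2 and Eef2kmt were annotated together with another gene on every clone. Their levels are not reported here.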

How the data were processed

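RNA of distal tail skin from 9 pools of mice, 3 per state, was hybridized against whole-embryo RNA on cDNA arrays with 2 colors. The authors extracted features with GenePix, subtracted background and normalized the dyes. The deposited values are log ratios, 1 per feature and array, and were read as log2, since their base and centering are not given in the sources used here. Of 42624 features 20678 are named by 1 gene, and 1.34% to 12.6% of the values of an array are missing. No depth applies, and the number of arrays limits the precision.

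The sign was turned to tail skin over embryo, and each array was centered on the median of its values. Only features measured on every array were kept. Clones of a gene were averaged, and limma 3.58.1 (R 4.3.3) was run on 8644 genes (lmFit and eBayes, state as the only term, all 9 arrays), with Benjamini-Hochberg adjustment at 0.05. The steps were tested on simulated data. SAM at 5%, the test named in the study, was written anew and run as an alternative. Whether arrays of 1 state came from separate surgeries is not given beyond the pools, so p-values measure the spread between pools. Plots were made in Python 3.11.15 with matplotlib 3.10.9.

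The members and gene lists were chosen with earlier results of these data known. Named genes are members past the threshold, the 6 highest and 6 lowest initiation genes, the 4 highest and 4 lowest synthetases, all elongation and release factors, the 3 highest and 3 lowest in sham against normal skin, factors of known role, and list genes past the threshold. Genes outside this rule, such as Eif3f, Eif3a, Eif3l, Eif4ebp3, Eif4enif1, Eif2b4, Eif4g2, Eif4b, Eif5, Rars2, Sars, Hars2, Iars2, Sars2, Mars2, Iars, Tars and Yars, Atf4, Ddit3 and Pabpc1, were chosen after their values were seen. Sequences are from RefSeq.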

Additional observations from a re-analysis of the deposited data

How the results depend on the processing

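No member passed between lymphedema and normal skin without centering, with quantile normalization, with 2 of 3 values per group, with the slide set as a block or with centering on features measured on all arrays, which was chosen after seeing the data. The replicate block, which treats equal array numbers as pairs, also gave 0 members, and the numbers did not pair the arrays (correlations of deviations from −0.24 to 0.28). Scaling to one median absolute deviation gave 1 member (Qars), 1 clone per gene 1 (Eif3f, lower), the 2 groups alone 2 and SAM 9 (Eef1a1, Eef1g, Eif2ak2, Eif3k, Eif3l, Eif4e2, Nars, Qars and Wars). Leaving out 1 array gave 0 to 1, the 1 being Qars without sham array 1 or sham array 3. Sham against normal and lymphedema against sham gave 0 members under every alternative run, including the second slide set alone for the latter, also chosen after seeing the data. The cause of these changes was not tested.

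The median of elongation genes was 0.20 with 1 clone per gene and 0.27 to 0.44 with 1 array left out. That of initiation genes ran from 0.14 to 0.22 and that of synthetases from 0.04 to 0.15 with 1 array left out, and neither changed sign under any alternative run.

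Of 39 named members 21 kept direction and call under all alternatives, 2 (Qars and Eif3k) gained a call in at least 1, and 16 changed direction in at least 1. With the slide set as a block the values were 0.0887 for Eef1akmt2, 0.579 for Eef1e1, −0.0487 for Eef2k, −0.044 for Eif2ak1, −0.0627 for Eif2s3y, −0.133 for Eif4ebp1, −0.0138 for Eif5a and −0.055 for Eif6. With 1 clone per gene they were −0.18 for Eef2k, −0.11 for Eif6, −0.15 for Etf1, −0.20 for Gars and −0.14 for Gspt1, and with 2 of 3 values per group 0.0652 for Vars2. With 1 array left out, values ranged from −0.297 to 0.0855 for Eef1akmt2, −0.391 to 0.178 for Eef1e1, −0.005 to 0.396 for Eif2ak1, −0.266 to 0.0015 for Eif2ak4, −0.135 to 0.0369 for Eif2b2, −0.163 to 0.0918 for Eif3e and −0.218 to 0.0557 for Eif4g3.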
